A study of Arabidopsis thaliana with 9 samples.

Results

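Transcript levels of 8 genes for ERF transcription factors (ERF6, ERF105, ERF8, ERF11, ERF012, ERF014, ERF023 and ERF037) and of ACS2, a gene of ethylene synthesis, were examined. The Arabidopsis thaliana seedlings were of an SRT1 overexpression line, an SRT1 RNA interference line and wild type. The 9 genes were taken by name from the 4 deposited lists of changed genes, which hold 2507 genes in 3092 rows. They account for 12 rows, 9 in the comparison of the overexpression line and 3 in that of the RNA interference line. Because the names were chosen from genes already in these lists, the fact that each one is listed is not a result.

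RNA sequencing was done on whole seedlings (leaf, stem and root) 14 days old, grown on MS medium. The wild type was Col. The other groups were line OX-SRT1-1, which overexpresses SRT1 (called OX here), and line RNAi-1, which carries an RNA interference construct against SRT1 (called RNAi here), and each is a single line. SRT1 encodes a sirtuin, an NAD-dependent protein deacetylase of the nucleus. There were 3 libraries in each of the 3 groups, but the tables give each group a single FPKM value (fragments counted per kilobase of a transcript, scaled to all mapped fragments), so no SD can be given, depth is unknown, and each p and q is the authors' own.

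Ethylene is a gaseous hormone that controls seedling growth, ripening, senescence and responses to wounding and pathogens. Its synthesis runs from S-adenosylmethionine to ACC, made by ACC synthases such as ACS2 in the step that usually limits the rate, and then to ethylene through ACC oxidases. The signal passes from membrane receptors through CTR1 and EIN2 to the transcription factor EIN3, which switches on some ERF genes. ERF proteins carry one AP2/ERF DNA-binding domain. Those of the ERF subfamily are known for binding the GCC box and those of the DREB subfamily for binding the dehydration-responsive element, and many respond within minutes to touch, cold, wounding or osmotic stress.

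The direction of the RNAi values needs a statement first. Under the title higher in RNAi, the lower first column is labelled col and the higher second column r5. Under the title lower in RNAi the labels stand the other way round, and there label and title conflict. Of 585 pairs of rows for 584 genes listed in both comparisons, the second column of the RNAi tables lay within 0.1 log2 units of the second column of the OX tables, labelled col, in 572 after a median shift of 0.08. Of the other 13 pairs, 12 involve entries whose locus is written in another format and 1 is SRT1. Without SRT1 and all 15 pairs with such entries, left out after their values were seen, the count was 569 of 569 for the second columns and 80 for the first. SRT1 itself was 6.05 FPKM in OX against 1.75 in col. In the RNAi tables it was 2.37 FPKM in the column labelled r5 against 0.419 in col, and the log2 ratio of -2.37 in the authors' deposited table does not follow from these values, which give -2.50. In the first RNAi column SRT1 was thus 5.67-fold higher, which goes against the label of an RNAi line, and its col value differed between the tables. The level of a gene in RNAi is therefore given here as the first column relative to the second, and "lower" and "higher" mean that. By the deposited labels and list title, ACS2, ERF023 and ERF037 were higher in RNAi.

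All 9 genes were lower in OX than in wild type, by 2.08-fold to 3.98-fold with a median of 2.37-fold, and 3 of them, ACS2, ERF037 and ERF023, were also lower in the first column of the RNAi table. Of all RefSeq nuclear protein-coding genes, 2.6% were in the list of genes lower in OX and 2.38% in that of genes lower in RNAi. Among the listed nuclear genes 39.6% were lower in OX and 64.1% in RNAi, and among those with a symbol 43.1% and 64.6%. The median over the 745 nuclear genes lower in OX was 2.49-fold, so the folds of the 9 genes were of ordinary size for that list. The 745 include entries with their locus in another format, such as ZAT10. They also include nuclear loci with mitochondrial gene names, such as COX3 and MT-CYB. Levels of the 9 genes spanned a wide range, from 0.697 FPKM for ACS2 to 66.5 FPKM for ERF012 in wild type.

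**Figure D1:**
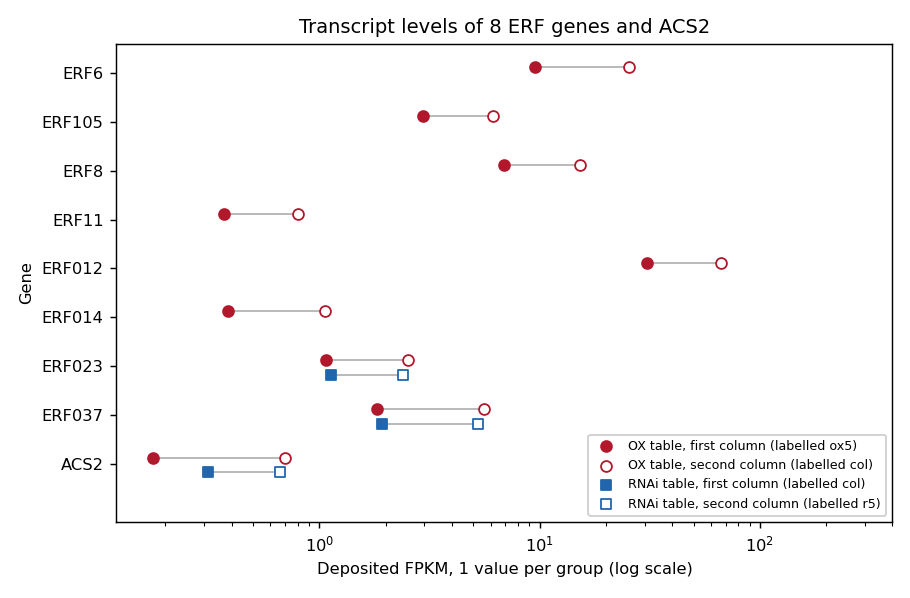
Deposited FPKM values (horizontal axis, log scale, 1 value per group and no error) of the 9 genes. Filled symbols are the first and open symbols the second column of the OX tables (red circles) and RNAi tables (blue squares, for the 3 genes listed there), and each filled symbol lies to the left of its open one, with ACS2 the lowest at 0.175 FPKM in OX.

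ERF6 and ERF105 belong to subfamily B-3 of the ERF factors in the RefSeq annotation. ERF6 is known as an activator that is phosphorylated by the kinases MPK3 and MPK6 and restrains leaf growth under osmotic stress. It was 9.55 FPKM in OX and 25.5 FPKM in wild type, 2.67-fold lower, with q = 0.00015 in the authors' deposited table. ERF6 (AT4G17490) lies on chromosome 4 at 9752824 to 9753867 of TAIR10. ERF105 (AT5G51190, chromosome 5, 20800584 to 20801416), which is linked to freezing tolerance, was 2.97 FPKM in OX and 6.16 FPKM in wild type, 2.08-fold lower, with q = 0.00015 in the authors' deposited table. That was the smallest fold of the 9 and is close to the 2-fold limit of the lists. Neither gene was found in the RNAi lists, which does not show that its level stayed the same there.

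ERF8 and ERF11, of subfamily B-1, are repressors that carry an EAR motif, a short stretch which recruits co-repressors. ERF8 (AT1G53170, chromosome 1, 19821337 to 19822252) was 6.93 FPKM in OX and 15.2 FPKM in wild type, 2.2-fold lower, with q = 0.00015 in the authors' deposited table. ERF11 (AT1G28370, chromosome 1, 9955969 to 9956940) is known to repress transcription of ACS2 and ACS5. It was 0.369 FPKM in OX and 0.803 FPKM in wild type, 2.18-fold lower, with p = 0.0147 and q = 0.027 in the authors' deposited table. Its fold was thus close to that of ERF8, at a level some way below. The neighbouring gene ERF12, 3228 bases away and of the same subfamily, was listed in the RNAi tables only, at 0.743 FPKM in the first column and 1.62 FPKM in the second, 2.18-fold lower with q = 0.013 in the authors' deposited table. The core of the GCC box, the letters GCCGCC on either strand, was searched in the 250 bases before the gene start. There 1.87% of 27443 nuclear protein-coding genes have it, 2.24% of those lower in OX and 5% of 120 ERF and DREB family genes. Of the 8 genes searched only ERF11 had it. The stretch of ERF11, at chr1:9956981-9957230 on the minus strand of TAIR10.1 (RefSeq), is shown with that core in capitals. Downstream of it, also in capitals, is the core TTGAC of the W box, the element bound by WRKY factors.
ERF11: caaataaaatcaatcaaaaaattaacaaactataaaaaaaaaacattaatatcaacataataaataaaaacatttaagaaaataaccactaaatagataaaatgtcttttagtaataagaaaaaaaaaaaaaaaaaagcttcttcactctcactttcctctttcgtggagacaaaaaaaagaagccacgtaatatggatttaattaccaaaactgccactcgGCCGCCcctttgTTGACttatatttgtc

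ERF012, ERF014, ERF023 and ERF037 belong to the DREB subfamily, the first pair to its group A-5 and the other pair to A-4, the group of TINY. ERF012 (AT1G21910, DREB26 in RefSeq, chromosome 1, 7696536 to 7697699) had the highest level of the 9 genes, 30.9 FPKM in OX and 66.5 FPKM in wild type, 2.15-fold lower with q = 0.00015 in the authors' deposited table. ERF014 (AT1G44830, chromosome 1, 16933792 to 16934511) was 0.386 FPKM in OX and 1.06 FPKM in wild type. It was 2.75-fold lower with p = 0.0214 and q = 0.038 in the authors' deposited table, the weakest call of the 9. The RefSeq annotation records more pectin deposition in cultured cells that overexpress ERF014.

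ERF023 (AT1G01250, chromosome 1, 104491 to 105330) was 1.07 FPKM in OX and 2.54 FPKM in wild type, 2.37-fold lower with q = 0.00029 in the authors' deposited table. In the RNAi table ERF023 was 1.14 FPKM in the first column and 2.41 FPKM in the second, 2.12-fold lower with q = 0.0022 in the authors' deposited table. ERF037 (AT1G77200, chromosome 1, 29004357 to 29005091) had the largest fold of the 8 ERF genes without a pseudocount, but with 1 FPKM added to each value ERF6 came to 2.51-fold and ERF037 to 2.32-fold. ERF037 was 1.83 FPKM in OX and 5.57 FPKM in wild type, 3.04-fold lower with q = 0.00015 in the authors' deposited table. In the RNAi table ERF037 was 1.93 FPKM against 5.26 FPKM, 2.73-fold lower with q = 0.0002 in the authors' deposited table. For both genes the values of the OX and RNAi tables lay close together, with folds that were 1.12 times as large in OX. The comparisons share the wild type libraries, and no test between the OX and RNAi values was possible.

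The W box core TTGAC occurred on either strand before 3 of the 8 genes searched, ERF105, ERF11 and ERF037, against 44.9% of all nuclear protein-coding genes, so its count was near the background. ERF037 had it at more than one place. Its upstream stretch, at chr1:29005282-29005531 on the minus strand of TAIR10.1, is shown for this reason, with the reverse complement GTCAA in capitals. The cores of the dehydration-responsive element (CCGAC), of the rapid stress response element (CGCGTT) and of the G box (CACGTG) were in 0 of these 8 stretches, against 12%, 2.59% and 6.49% of all genes. A match or its lack in this window says nothing of what binds there.
ERF037: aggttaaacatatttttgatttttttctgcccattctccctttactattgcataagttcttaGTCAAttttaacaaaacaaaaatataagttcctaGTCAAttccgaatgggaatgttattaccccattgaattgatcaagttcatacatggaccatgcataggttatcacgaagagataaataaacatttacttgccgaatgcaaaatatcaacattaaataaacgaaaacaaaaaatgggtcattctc

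ACS2 (AT1G01480, chromosome 1, 175782 to 178400) encodes one of the ACC synthases and is known to be induced by wounding and by fungal infection. It had the lowest level of the 9 genes and the largest fold, 0.175 FPKM in OX against 0.697 FPKM in wild type, 3.98-fold lower with q = 0.00015 in the authors' deposited table. Of the 745 nuclear genes lower in OX, 82.7% had a smaller fold than ACS2. The order rests on its low level, since with 0.1 FPKM added to each value ACS2 came to 2.89-fold and ERF037 to 2.94-fold, and with 1 FPKM ACS2 came to 1.44-fold and ERF6 to 2.51-fold. In the RNAi table ACS2 was 0.313 FPKM in the first column and 0.664 FPKM in the second, 2.12-fold lower with q = 0.0064 in the authors' deposited table. The fold of ACS2 was 1.87 times as large in OX as in RNAi, where the median of that ratio over 269 nuclear genes lower in both was 1.04 without a pseudocount. With 1 FPKM added to each value the ratio for ACS2 was 1.14. This difference was not tested. The 250 bases before the gene, at chr1:175456-175705 on the plus strand of TAIR10.1, held 0 of the 5 motifs searched and are shown for comparison with the ERF genes.
ACS2: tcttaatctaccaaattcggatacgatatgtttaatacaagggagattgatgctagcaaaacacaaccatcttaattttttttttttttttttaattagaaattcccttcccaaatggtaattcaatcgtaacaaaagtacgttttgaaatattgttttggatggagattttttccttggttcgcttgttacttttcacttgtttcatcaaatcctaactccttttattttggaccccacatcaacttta

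Genes at a low level differed in their q. Multiplying FPKM by the exon length in RefSeq, in kilobases, gave 1.39 fragments per 1000000 mapped in wild type for ACS2, which has 4 exons and 2002 exonic bases. ERF11 and ERF014 came to 0.936 and 0.922 such fragments, and these were the 2 genes with the largest q. ERF012 came to 93.5. These products are approximate, because the RefSeq exons can be longer than the deposited locus. They were 1405 against 1164 bp for ERF012, 1165 against 972 bp for ERF11 and 870 against 720 bp for ERF014. All 8 ERF genes had a single exon, as do 78.3% of the ERF and DREB family by RefSeq gene note. The share was 51.9% for nuclear genes lower in OX and 20.4% for all nuclear protein-coding genes. On chromosome 1 lie 7 of the 9 genes, 24% of the 745 nuclear genes lower in OX and 33.9% of the family.

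**Figure D2:**
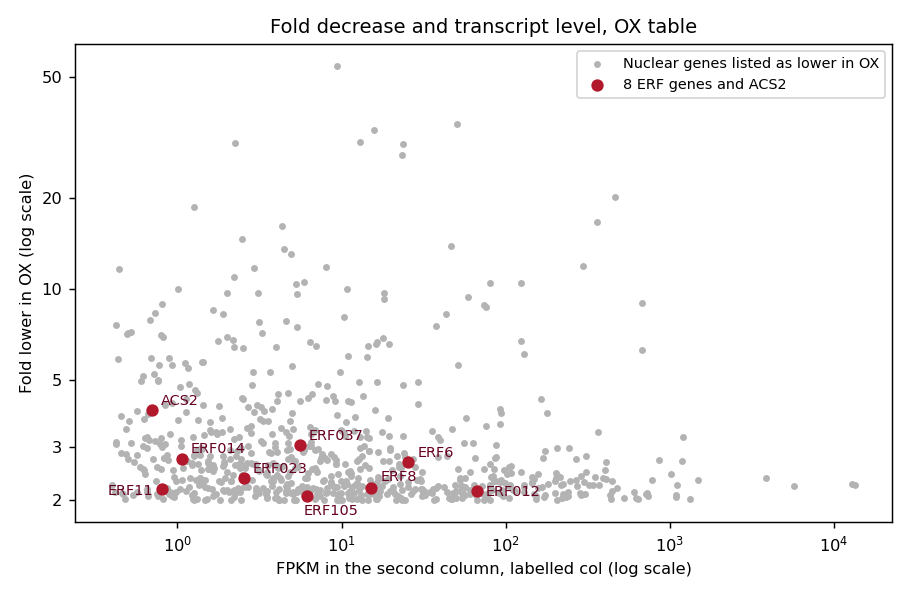
Fold decrease in OX (vertical axis, log scale) against FPKM in the wild type column (horizontal axis, log scale) for 745 nuclear genes listed as lower in OX (grey) and the 9 genes (red). The 9 genes lie between 2.08-fold and 3.98-fold, 4 of them above the median of 2.49-fold over the 745 genes.

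Single exons and short loci went with the direction of change in these lists as a whole. The loci of the 8 ERF genes span 720 to 1164 bp. Among listed nuclear genes spanning no more than 1164 bp, 86.9% were lower in OX and 80.7% in RNAi. Among those with a single exon the shares were 84.5% and 88.6%, and among those with more exons, as ACS2 has, 25.7% and 55.6%. The direction of the ERF genes was thus that of most short, single-exon genes in the lists. The part of gene length in it was not tested.

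**Figure D3:**
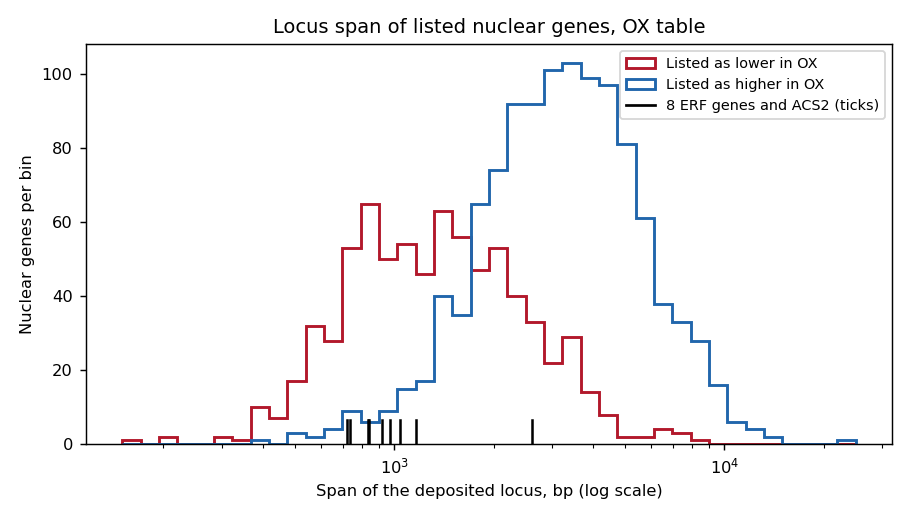
Number of listed nuclear genes per bin (vertical axis) by span of the deposited locus in bp (horizontal axis, log scale), for genes lower (red) and higher (blue) in OX. Ticks mark the 9 genes, of which the 8 ERF genes, from 720 to 1164 bp, fall where genes lower in OX outnumber those higher.

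The wider ERF and DREB family was taken by RefSeq product or symbol, together with listed genes whose deposited symbol names the family. Some genes could thus enter it only because they were listed. In this family 13 genes were lower and 1 higher in OX, and 5 lower and 4 higher in RNAi. Without the 8 genes above, which were chosen from the OX list, 5 were lower and 1 higher in OX, and 3 lower and 4 higher in RNAi. Among all listed nuclear genes 39.6% were lower in OX and 64.1% in RNAi. Among those with a single exon, as most family genes listed in OX have, the shares were 84.5% and 88.6%. Over all listed family genes, with the 8 included, the median log2 ratios were -1.33 in OX and -1.09 in RNAi. By the RefSeq gene note, which names 121 genes of the family, the counts were 14 and 1 in OX and 6 and 5 in RNAi. Beside the 8 genes above, ERF113 of subfamily B-4 had the largest fold in OX, at 2.58 against 12.7 FPKM, 4.92-fold lower. DREB1C, also named CBF2, a regulator of cold acclimation, was 0.862 against 3.39 FPKM in OX and 1.2 against 3.22 FPKM in RNAi. ERF013, of group A-5 like ERF012 and ERF014, was 3.63-fold lower in OX, the repressor ERF4 2.23-fold, ERF098 2.92-fold and CRF6, a cytokinin response factor, 2.78-fold. The one gene higher in OX was ERF015, also of group A-5, at 4.27 against 2.12 FPKM. RefSeq gives ERF015 3 exons. By subfamily, B-1 and B-3 each had 3 genes lower in OX, of 15 and 18 genes. A-4 had 2 of 17, and A-5 had 3 lower and 1 higher of 15. Most of these genes are among the 8 above, chosen from the OX list. Without those 8, only ERF4 in B-1, ERF098 in B-3 and ERF013 and ERF015 in A-5 were left, and none in A-4. Of all nuclear protein-coding genes, 2.6% were listed as lower in OX.

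The RNAi tables listed other family genes. ERF114 of subfamily B-4 was 0.123 FPKM in the first column and 1.71 FPKM in the second, 13.9-fold lower with q = 0.016 in the authors' deposited table. CRF1 was 2.09-fold lower. Higher in the first column were RAP2-6 (3.34-fold), RAP2-9 (2.75-fold), DREB2C (2.63-fold), AT1G63040 (2.45-fold) and ERF2 (2.11-fold), the last of these an activator of subfamily B-3, at 23.3 against 11 FPKM. Of the 9 family genes listed in RNAi by product or symbol, which leave out CRF1 and AT1G63040, 55.6% were lower. By the gene note it was 54.5% of 11 genes. The share over all listed nuclear genes was 64.1%. Whether the family differed between OX and RNAi was not tested.

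**Figure D4:**
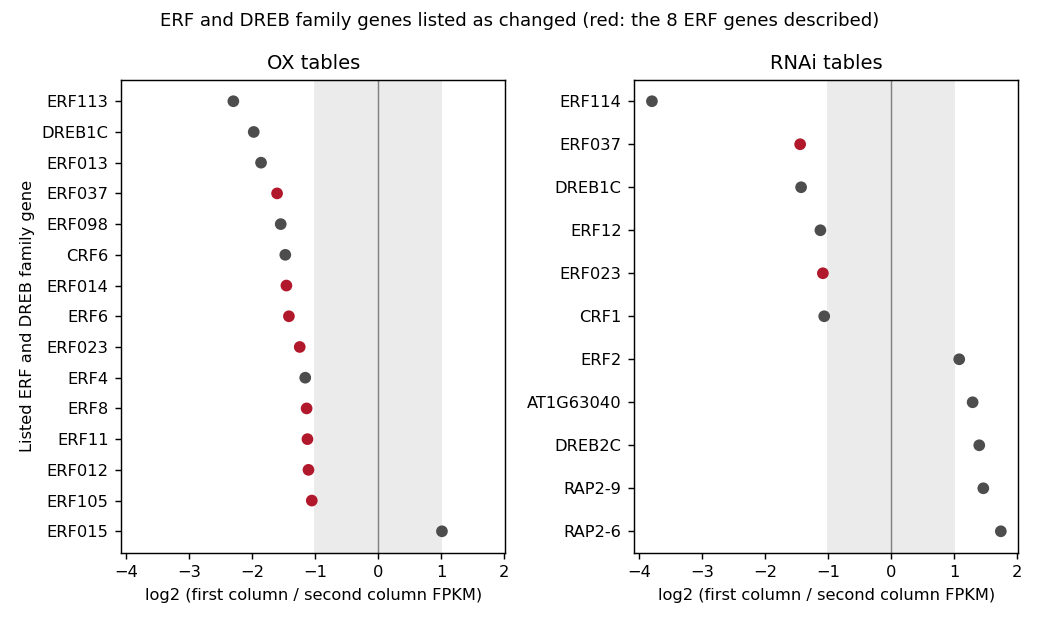
Log2 ratio of the first over the second FPKM column (horizontal axis) for each listed ERF and DREB family gene by the RefSeq gene note, in the OX tables (left) and RNAi tables (right). Red points are the 8 ERF genes, and the grey band marks less than 2-fold, which the lists leave out. In OX 14 genes lie on the left and 1 on the right, in RNAi 6 and 5.

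Of 16 genes for ethylene synthesis, 3 were lower and 1 higher in OX, and 2 lower and 0 higher in RNAi. Without ACS2, chosen for its place in these lists, 2 of 15 were lower in OX and 1 in RNAi, beside the 2.6% and 2.38% of all nuclear protein-coding genes given above. The list of synthesis genes was itself chosen with earlier results of these data known, so these counts are not an independent result. ACS7, which encodes another ACC synthase, was 0.271 FPKM in OX and 4.36 FPKM in wild type, 16.1-fold lower with q = 0.00015 in the authors' deposited table. In the RNAi table ACS7 was 1.87 FPKM in the first column and 4.12 FPKM in the second, 2.21-fold lower with q = 0.0002 in the authors' deposited table. Its fold in OX was thus 7.26 times that in RNAi without a pseudocount, a difference that was not tested. Both the 16.1-fold and the 7.26 rest on the low value of 0.271 FPKM in OX. For ACS2 this ratio fell from 1.87 to 1.14 with 1 FPKM added, and for ACS7 no such value was computed. SAM1, an S-adenosylmethionine synthetase gene, was 143 against 322 FPKM in OX, 2.26-fold lower, and reads may be shared with its close copies. ACS4, an auxin-induced ACC synthase gene, was higher in OX, at 1.11 against 0.524 FPKM, 2.12-fold with q = 0.0024 in the authors' deposited table. The ACC synthase genes listed in OX therefore went in both directions, ACS2 and ACS7 down and ACS4 up.

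Of all nuclear protein-coding genes, 6.39% were listed in either direction in OX and 3.64% in RNAi. The 15 genes for ethylene perception and signalling, from the receptor ETR1 to EIN3, and 8 genes that control the stability or phosphorylation of ACC synthases had 0 listed genes in either comparison. Of 11 ethylene response genes 0 were listed in OX and ERF2 alone, higher, in RNAi. Of 5 described targets of ERF6, 3 were lower in OX. These were ERF11, MYB51, a regulator of indole glucosinolates, at 2.79 against 6.2 FPKM, and ZAT10, a zinc finger repressor. ZAT10 is one of 14 entries in that list whose locus is written in another format. It was 5.14 against 19.2 FPKM in OX and 0.238 against 1.31 FPKM in RNAi, so that its wild type values disagree between the tables. ZAT10 was the only ERF6 target listed in RNAi. Without ZAT10 and ERF11, MYB51 alone was left in OX. Of 17 rapidly stress-induced genes 5 were lower in OX, ERF6, DREB1C, WRKY6, ZAT12 and ZAT6, with folds from 2.00 to 3.94, and in RNAi DREB1C and WRKY53 were lower. ERF6 and ERF11 were chosen from the OX list. Without them 2 of 4 ERF6 targets and 4 of 16 stress-induced genes were lower in OX, beside 2.6% of all nuclear protein-coding genes, and 1 and 2 in RNAi, beside 2.38%. The lists themselves were chosen with earlier results of these data known, so these counts are not an independent result. The 2.6% and 2.38% are over all annotated genes, whether expressed or not.

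By distance in the OX and RNAi log2 ratios, the genes with a symbol most like ERF023, among 285, were PER70, a peroxidase gene, GH3.12 and GSTF8, at 0.034 to 0.048 log2 units. The nearest to ERF037 were CYP81F2, PAL1 and COPT2, at 0.088 to 0.147. The nearest to ACS2 were the mitochondrial frames ORF240A and ORF113 and the peroxidase gene PER69, at 0.117 to 0.258. PER69 was 24.2 against 94 FPKM in OX and 38.9 against 89.9 FPKM in RNAi. These distances rest on 2 ratios that share wild type libraries.

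Markers of tissues also differed between the groups. Of 13 root markers 6 were lower in OX, by 2.00-fold to 2.89-fold, and 8 in RNAi, by 2.1-fold to 5.26-fold, and 0 were higher. Of 9 green tissue markers 3 were lower in OX and 1 in RNAi, and 0 were higher. The lists of lower genes held 2.6% of all nuclear protein-coding genes for OX and 2.38% for RNAi. The marker lists were chosen with earlier results of these data known, so their counts are not an independent result. LHCB1.1 and LHCB1.2, both counted among the green markers lower in OX, have the same deposited symbol. In whole seedlings fewer cells of a type and less RNA per cell cannot be told apart, and the part of tissue composition in the ERF and ACS2 values was not tested.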

How the data were processed

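The submitters' processing notes name Cuffdiff, Cufflinks 2.2.1 and TopHat2 2.1.1 with the TAIR10 genome, without roles or order. The deposited tables have Cuffdiff column names, per the file headers, with 1 FPKM value per group, a log2 ratio, a fold, a p-value and a q-value by the authors. The deposited fold columns (a ratio in 2 lists, a signed score in the others) were not used. The lists hold only genes with at least a 2-fold difference and q up to 0.0496, so an unlisted gene was not analysed here. Folds were computed as ratios of the deposited FPKM values with no pseudocount, in Python 3.11.15 with pandas 2.3.3. No value per library was used, so the planned limma test was not run.

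The 9 genes and all gene lists were chosen with earlier results of these data known. Named genes were the 9, other listed genes of the family and ethylene lists, SRT1, and the 3 nearest genes by distance in the OX and RNAi log2 ratios. Loci are TAIR10 as deposited, counted from 1. Exons, gene notes and the 250 upstream bases are from RefSeq TAIR10.1, where 2412 of 2413 listed nuclear genes overlapped the deposited locus of the same identifier. Motifs were searched on both strands in 8 of the 9 genes, and the upstream stretch of the other is not reported here. Protein features were not analysed here. Close copies can share reads. Nothing says that libraries came from separate cultures. Alternatives were pseudocounts, q, FPKM and fold limits, the other table's wild type column and other family definitions. Leaving out libraries was not possible.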

Additional observations from a re-analysis of the deposited data

How the results depend on the processing

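No paired analysis was possible because the tables hold 1 value per group, and for the same reason no library could be left out. With a pseudocount of 1 FPKM the folds of the 9 genes ran from 1.27 to 2.51, with 0.1 FPKM from 1.85 to 2.94, against 2.08 to 3.98 without one. Against the other comparison's second column, the folds of ACS2, ERF023 and ERF037 ran from 2.23 to 3.79.

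With at least 5 FPKM in the higher column, 5 of 9 genes were left as lower in OX and 1 of 3 in RNAi. With at least 3-fold, 2 and 0 were left. In the family, at least 5 FPKM left 8 lower and 0 higher in OX and 1 lower and 2 higher in RNAi, and at least 3-fold left 4 and 0 in OX and 1 and 1 in RNAi. With q up to 0.01 the 5 family genes lower in RNAi became 3. The ethylene and stress lists together had 11 genes lower and 1 higher in OX, and 5 and 1 in RNAi. At least 5 FPKM left 5 and 0 in OX and 0 lower in RNAi, at least 3-fold left 4 and 0 in OX and 1 and 0 in RNAi, and q up to 0.01 left 3 lower in RNAi. These limits remove genes by construction. The other family definitions, and leaving out the entries in another locus format, kept each count within 1.5 times. The gene note, and leaving out such entries from the ethylene and stress lists, were chosen after seeing the data. Depth is unknown, and 1 value per group gives no measure of error.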
